A study of Mus musculus with 6 samples.

Results

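Nrf2, the transcription factor encoded by Nfe2l2, and 9 of its well-known antioxidant targets were examined by RNA sequencing in whole skin of JunBΔep mice. The 10 genes (Nfe2l2, Nqo1, Hmox1, Gclm, Gclc, Txnrd1, Srxn1, Slc7a11, Gsr and Gpx2) were picked by symbol as textbook Nrf2 targets, with earlier results of these data known, from the 23951 genes in the table. All 10 are in the table and all 10 passed a filter at a mean of 0.1 FPKM (fragments per kilobase of transcript, scaled to library size) over the 6 mice, which left 17021 genes to test. None of the 10 passed the test between genotypes, which only 1.38% of all genes tested passed. The highest value of 8 of them lay in the same JunBΔep library, as did that of 29.7% of all genes tested.

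The control group was 3 mice of genotype JunB +/+, and the JunBΔep group was 3 mice labelled JunB dep, in which Junb, a subunit of the AP-1 transcription factor, is deleted in cells that express keratin 5, mainly basal keratinocytes and hair follicle cells. All 6 mice were C57Bl/6 and 6 to 7 months old by their labels, no treatment is labelled, and the JunBΔep skin was taken from lesions. The comparison asked which transcripts differ between inflamed skin of JunBΔep mice and skin of control littermates. Cells other than keratin 5 cells keep Junb, and in whole skin fewer cells of a type and less RNA per cell cannot be told apart. The labels number the mice 0, 1 and 2 in each group, and the sex of each mouse is not given.

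In resting cells Keap1 holds Nrf2 and passes it to a Cul3 ubiquitin ligase for degradation. Oxidants and electrophiles modify cysteines of Keap1, after which Nrf2 accumulates, enters the nucleus, pairs with a small Maf protein and binds antioxidant response elements (AREs) near its targets. Those targets make and recycle glutathione, reduce thioredoxin and peroxiredoxins, and detoxify quinones and haem. In skin, keratinocytes are a main site of this response.

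Junb itself (mm9, chromosome 8, 87500811 to 87502617) was read first as a check of the labels. It stood at 59.3, 72.4 and 56.9 FPKM in control mice 0, 1 and 2, and at 129.6, 42.8 and 28.0 FPKM in JunBΔep mice 0, 1 and 2. JunBΔep mice 1 and 2 were below every control, and the library labelled JunBΔep 0 was above every control, so Junb goes against the label of that library. The groups did not separate in limma (log2 fold change -0.21, SE 0.55, adjusted p = 0.901). The estimates of the 10 genes, and the medians of the lists, are therefore given with and without the library labelled JunBΔep 0.

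The libraries also differed in their marker signal for cell types. FPKM values summed to between 481078 and 630363 per mouse, and read depth is unknown. Basal and suprabasal keratinocyte markers were high in all 6 mice (8236 to 13898 FPKM summed over 9 genes), as the label of skin requires, although Krt14 is listed at 0 in the library labelled JunBΔep 0. That library also held the most mucosal epithelium marker signal (3842 FPKM over 6 genes, against 24.1 to 55.6 in the other mice), neutrophil marker signal (24997 FPKM over 11 genes, nearly all from S100a8, against 25.8 to 1900, with S100a9 and Elane listed at 0) and stressed keratinocyte signal (8018 FPKM over 7 genes, against 678 to 1481, with Krt6a, Krt6b and Krt16 listed at 0). Summed over 15 hair shaft and root sheath genes, control 2 and JunBΔep 1 reached 4978 and 7939 FPKM, and the other 4 mice 8.71 to 402 FPKM. Of 15 skeletal muscle markers, 9 were called lower in JunBΔep skin, against 1.38% of all genes tested in either direction, and 3 without the library labelled JunBΔep 0, when 135 of 16912 genes were called. All calls over the table were lost on leaving out any control or JunBΔep 1. Control 0 alone held hepatocyte markers (1917 FPKM over 8 genes, against 2.47 to 29.7).

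Because FPKM is scaled by transcript length, levels can be set side by side between genes. In control skin the mean levels were 60.6 FPKM for Hmox1, 41.3 for Txnrd1, 31.2 for Nfe2l2, 12.9 for Gsr, 10.7 for Gclc, 10.7 for Srxn1, 9.27 for Gclm, 8.75 for Nqo1, 3.86 for Gpx2 and 0.201 for Slc7a11 (n = 3). The ranges of neighbours in this order overlapped between Txnrd1 and Nfe2l2 and through the run from Gsr to Nqo1. Hmox1 lay above all other members in each control, and Slc7a11 lay below all others. In JunBΔep skin the mean levels ran from 59.2 FPKM for Hmox1 to 6.25 for Slc7a11, and every pair of neighbours in that order overlapped.

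**Figure D1:**
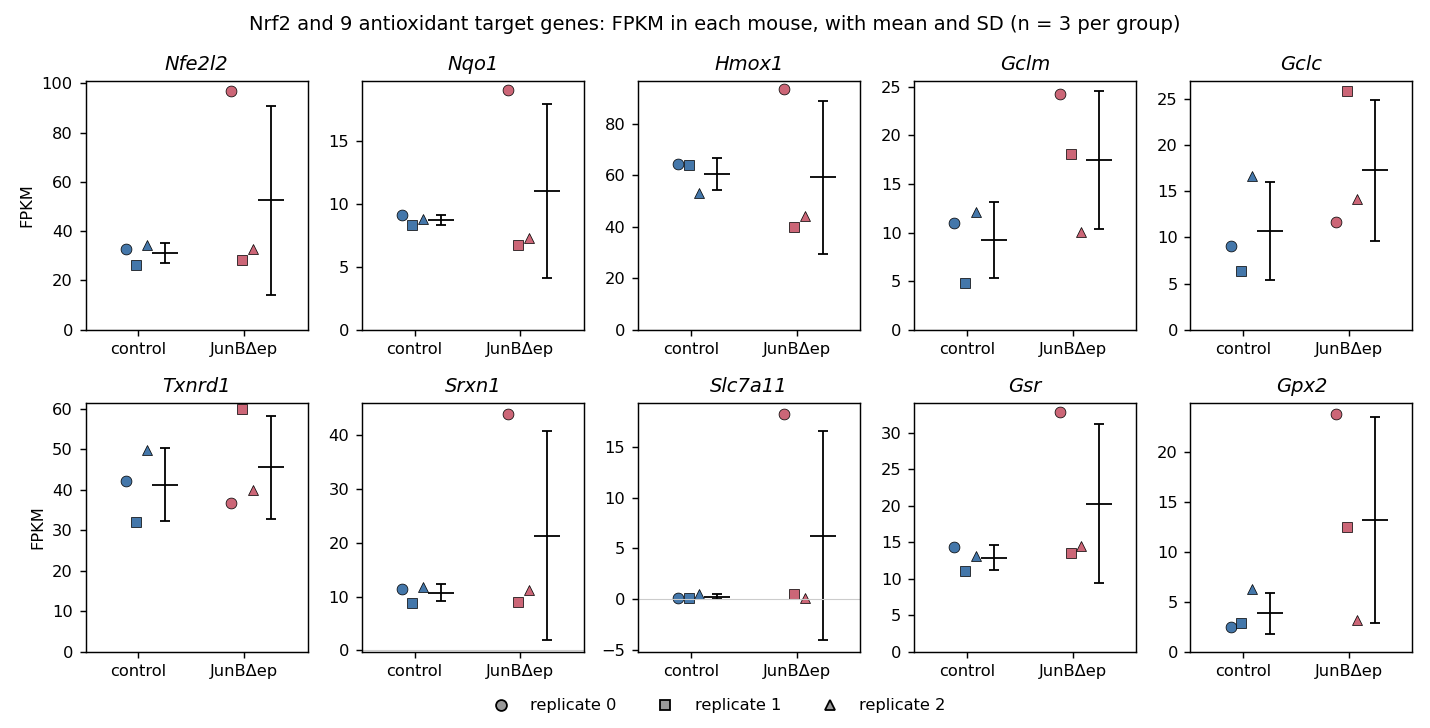
FPKM of Nfe2l2 and its 9 targets in each mouse, with the group mean and SD (bars, n = 3) beside the points; marker shape gives the replicate number and each panel has its own linear axis. The circle of the JunBΔep group (replicate 0) is the highest point in 8 of the 10 panels, and the groups overlap in all 10.

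Nfe2l2 (chromosome 2, 75513570 to 75542698, minus strand) encodes Nrf2. Its level was 32.9, 26.4 and 34.2 FPKM in the controls and 96.8, 28.2 and 32.7 FPKM in JunBΔep mice 0, 1 and 2. The library labelled JunBΔep 0 was 2.83 times the next highest mouse, and JunBΔep 1 and 2 lay inside the control range. The group means were 31.2 ± 4.17 and 52.6 ± 38.4 FPKM (SD, n = 3 each), a log2 fold change of 0.52 on the log2(FPKM + 0.5) scale (SE 0.47, limma adjusted p = 0.726). Without that library the log2 fold change was -0.03. Since Nrf2 is regulated mainly through its stability, the transcript is a poor guide to the amount of the protein, which was not measured here.

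RefSeq promoter sequence (GRCm38.p6, from 250 bases before to 50 after the start) was at hand for 7 of the 10 genes (not Hmox1, Gclc or Gsr), and the core ARE motif TGACNNNGC, searched on both strands, occurred in that of 4 of them. The table holds 9 promoters for these 7 genes, 4 of them with a match. The same letters occur in 12.4% of all 32851 promoters of this length and in 13.99% of the 27025 genes with an entry, and none of the 4 matches overlapped an AP-1 motif. The genes were picked by symbol and not by these letters, and Nqo1, Slc7a11 and Gpx2 had no match in this window. The matches are shown as a description only. Each stretch of 30 bases reads 5′ to 3′ along the strand of its gene, with the match in capitals, and where the capitals start with GC the motif lies on the opposite strand. Counted in bases from the start site, the matches begin at -240 in Nfe2l2, -134 in Gclm, -92 in Txnrd1 and 29 in Srxn1.
Nfe2l2: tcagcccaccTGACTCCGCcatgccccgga
Gclm: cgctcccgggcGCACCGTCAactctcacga
Txnrd1: actggatttttGCTTTGTCAttctgacacg
Srxn1: ggcagtgggcaGCTAGGTCAgagtgagaca

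Glutathione synthesis starts with glutamate-cysteine ligase, made of the catalytic subunit Gclc (chromosome 9, 77602342 to 77642292, plus strand) and the modifier subunit Gclm (chromosome 3, 121948475 to 121972902, plus strand). Gclc stood at 9.05, 6.34 and 16.7 FPKM in the controls and at 11.6, 25.9 and 14.2 FPKM in JunBΔep mice 0, 1 and 2. JunBΔep 1 was highest and control 2 second, and the library labelled JunBΔep 0 lay between the lower controls and control 2. The means were 10.7 ± 5.36 and 17.2 ± 7.61 FPKM (SD, n = 3 each), with a log2 fold change of 0.69 (SE 0.44, limma adjusted p = 0.722) that was 0.92 without JunBΔep 0, 0.36 without JunBΔep 1 and 0.39 without control 1.

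Gclm, which lowers the substrate concentration the catalytic subunit needs, read 10.9, 4.80 and 12.1 FPKM in the controls, against 24.3, 18.1 and 10.1 FPKM in JunBΔep mice 0, 1 and 2. JunBΔep 0 and 1 were above every control, while JunBΔep 2 was below control 0 and 2. The means of 9.27 ± 3.91 and 17.5 ± 7.13 FPKM gave a log2 fold change of 0.89 (SE 0.46, limma adjusted p = 0.722), of 0.62 without JunBΔep 0 and of 0.50 without control 1. The pair thus differed in the library labelled JunBΔep 0, which was highest for the modifier subunit and below control 2 and both other JunBΔep mice for the catalytic one.

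Slc7a11 (chromosome 3, 50168858 to 50247535, minus strand) is the light chain of the cystine and glutamate exchanger, which brings in the cysteine for glutathione. It was the scarcest of the 10 genes in control skin, at 0.0649, 0.0444 and 0.493 FPKM, and reached 18.2, 0.448 and 0.101 FPKM in JunBΔep mice 0, 1 and 2. The library labelled JunBΔep 0 held 37.0 times the next highest value, the widest such gap among the 10 genes, and the other 5 mice were all below 1 FPKM. Control means of 0.201 ± 0.253 and JunBΔep means of 6.25 ± 10.4 FPKM gave a log2 fold change of 1.71 (SE 1.29, limma adjusted p = 0.722), and 0.16 without that library. At such low values the pseudocount of 0.5 shrinks the fold change.

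Slc7a11 and Srxn1, with the widest gaps between the library labelled JunBΔep 0 and the next mouse, had no ARE core and 1 ARE core in this window, and their 250 bases before the start (GRCm38.p6) are shown to set their motifs side by side. In Slc7a11 (chr3:50443614-50443863, minus strand) the capitals mark 2 matches, one on each strand, of the amino acid response element TGATGCAA, which Atf4 binds with a C/EBP partner. This motif was searched for after the sequence had been read, and it occurs in 0.895% of all promoters. In Srxn1 (chr2:152105274-152105523, plus strand) they mark 2 matches of the AP-1 site TGACTCA or TGAGTCA, the site bound by Jun family dimers such as JunB with Fos, found in 5.20% of all promoters and in no other of the 7 genes. Both motifs were searched on both strands and neither overlapped a match of the ARE core as searched, TGACNNNGC. The AP-1 match of Srxn1 at -45, read with the bases after it, is TGAGTCAGC, with a G where that core has a C. Looser forms of the core were not among the motifs searched. These matches describe letters only, and binding was not measured.
Slc7a11: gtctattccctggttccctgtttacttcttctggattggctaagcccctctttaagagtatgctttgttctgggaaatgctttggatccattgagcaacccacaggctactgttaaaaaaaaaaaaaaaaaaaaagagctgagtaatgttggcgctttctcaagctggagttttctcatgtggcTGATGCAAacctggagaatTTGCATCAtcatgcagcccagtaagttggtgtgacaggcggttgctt
Srxn1: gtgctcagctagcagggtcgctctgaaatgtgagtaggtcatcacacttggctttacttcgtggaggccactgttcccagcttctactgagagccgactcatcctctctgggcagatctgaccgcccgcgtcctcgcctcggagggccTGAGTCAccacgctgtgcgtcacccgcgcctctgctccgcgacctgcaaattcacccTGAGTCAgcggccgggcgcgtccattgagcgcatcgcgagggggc

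Gsr (chromosome 8, 34762995 to 34808635, plus strand), glutathione reductase, turns oxidised glutathione back with NADPH. It was nearly level in 5 mice, at 14.4, 11.1 and 13.1 FPKM in the controls and 13.6 and 14.5 FPKM in JunBΔep 1 and 2, and stood at 32.9 FPKM in the library labelled JunBΔep 0. That library was 2.28 times the next highest mouse. Means of 12.9 ± 1.69 and 20.3 ± 10.9 FPKM gave a log2 fold change of 0.53 (SE 0.36, limma adjusted p = 0.722), which was 0.12 without it.

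Gpx2 (chromosome 12, 77893322 to 77896541, minus strand) is an epithelial glutathione peroxidase best known from the gut. The controls held 2.48, 2.84 and 6.24 FPKM and JunBΔep mice 0, 1 and 2 held 23.8, 12.5 and 3.22 FPKM. JunBΔep 0 and 1 were both above every control, and JunBΔep 2 was below control 2. The log2 fold change of 1.38 (SE 0.73) was second to Slc7a11 in size, from means of 3.86 ± 2.07 and 13.2 ± 10.3 FPKM (SD, n = 3 each), with a limma adjusted p of 0.722, and it was 0.77 without JunBΔep 0.

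Txnrd1 (chromosome 10, 82296696 to 82360469, plus strand), the cytosolic thioredoxin reductase, was the second most abundant member. Values were 42.1, 32.0 and 49.9 FPKM in the controls and 36.7, 60.0 and 39.9 FPKM in JunBΔep mice 0, 1 and 2. JunBΔep 1 was highest, and the library labelled JunBΔep 0 lay below control 0 and 2. Means of 41.3 ± 8.99 and 45.5 ± 12.6 FPKM differed by less than the spread within each group (log2 fold change 0.13, SE 0.26, limma adjusted p = 0.872). Without JunBΔep 0 the log2 fold change was 0.26. Its estimate changed sign when control 1 or JunBΔep 1 was left out, to -0.04 and -0.09.

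Srxn1 (chromosome 2, 151931252 to 151937112, plus strand) encodes sulfiredoxin, which repairs overoxidised peroxiredoxins. It read 11.5, 8.84 and 11.8 FPKM in the controls, 43.9 FPKM in the library labelled JunBΔep 0, and 9.003 and 11.2 FPKM in JunBΔep 1 and 2. The high library was 3.71 times the next mouse, and the other 5 mice lay close together. Means were 10.7 ± 1.64 and 21.4 ± 19.5 FPKM, for a log2 fold change of 0.61 (SE 0.59, limma adjusted p = 0.736) that became -0.08 without that library.

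Nqo1 (chromosome 8, 109912125 to 109927106, minus strand), the quinone reductase most often used as a readout of Nrf2, was close to level among controls, at 9.12, 8.34 and 8.80 FPKM. JunBΔep mice 0, 1 and 2 had 19.1, 6.78 and 7.29 FPKM. The library labelled JunBΔep 0 was above every control, at 2.09 times the next mouse, and JunBΔep 1 and 2 were below every control. Means of 8.75 ± 0.394 and 11.04 ± 6.94 FPKM gave a log2 fold change of 0.16 (SE 0.40, limma adjusted p = 0.895), which turned to -0.30 without that library.

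Hmox1 (chromosome 8, 77617490 to 77624495, plus strand), the inducible haem oxygenase, was the most abundant of the 10 genes and the only one with a negative estimate. Controls stood at 64.4, 64.2 and 53.3 FPKM and JunBΔep mice 0, 1 and 2 at 93.5, 39.8 and 44.4 FPKM. As with Nqo1, the library labelled JunBΔep 0 was above every control and the other JunBΔep mice were below every control. The means of 60.6 ± 6.37 and 59.2 ± 29.8 FPKM were close (log2 fold change -0.14, SE 0.34, limma adjusted p = 0.897), and without that library the log2 fold change was -0.52 (SE 0.16, limma adjusted p = 0.418). Macrophages, which clear haem, are a source of Hmox1 in skin, and their 10 markers summed to 240 to 496 FPKM in control skin and to 836, 102 and 245 FPKM in JunBΔep mice 0, 1 and 2. The high sum in the library labelled JunBΔep 0 came mostly from Lyz2 (557 FPKM) and Cd14 (170 FPKM), only 3 of the 10 markers were highest there, and the median of the 10 relative to the control mean was 0.17 there and 0.58 in control 0 on the log2 scale. The part of macrophages in the Hmox1 values was not tested.

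Across the 10 genes, 0 were called at an adjusted p of 0.05, against 1.38% of all 17021 genes tested (235 genes, all lower in JunBΔep skin). None passed at an unadjusted p of 0.05, against 7.56% of all genes, and in none were the groups apart, against 14.8% of all genes. Estimates were positive for 9 genes and negative for 1, with a median log2 fold change of 0.57, beside a median of 0.03 and 53.4% positive over all genes tested. Adjusted p-values ran from 0.722 to 0.897 in limma. Without the library labelled JunBΔep 0 the median of the 10 was 0.14, with 6 positive. In exact permutation tests over the 20 arrangements of the 6 mice, two-sided, single genes gave p from 0.2 to 1, where 0.1 is the smallest p this design allows.

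**Figure D2:**
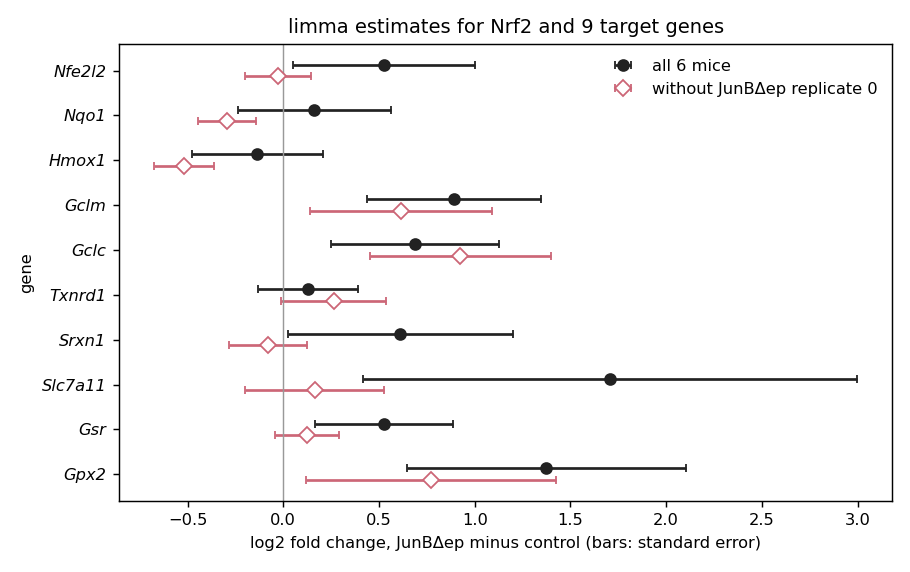
limma log2 fold changes (JunBΔep minus control, log2(FPKM + 0.5) scale) for the 10 genes, with standard errors as bars. Filled circles use all 6 mice and open diamonds leave out JunBΔep replicate 0, which moves the median from 0.57 to 0.14. It also brings Nfe2l2, Srxn1 and Nqo1 below 0, where Hmox1 already lies with all 6 mice.

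Read mouse by mouse, the genes fell into patterns that were noticed after their values were seen and are given as descriptions. The library labelled JunBΔep 0 was the highest of 6 for Nfe2l2, Nqo1, Hmox1, Gclm, Srxn1, Slc7a11, Gsr and Gpx2, 8 of the 10, where 29.7% of all genes tested had their highest value there. It was at least 2 times the next mouse for Nfe2l2, Nqo1, Srxn1, Slc7a11 and Gsr, 5 of the 10, against 6.51% of all genes. Its FPKM sum was also the largest of the 6, and with each library scaled to a sum of 1000000 it was still highest for 8 of the 10 (17.7% of all genes), but at least 2 times the next mouse for only 3. Relative to the control mean, the median of the 10 genes on the log2 scale was 0.07, -0.27 and 0.22 in the controls and 1.38, 0.29 and 0.02 in JunBΔep mice 0, 1 and 2. The largest of these medians thus stood in 1 of the 3 JunBΔep mice, the one whose Junb was above every control. Its mucosal and stressed keratinocyte marker sums were also the highest (5 of 6 and 4 of 7 markers highest there). Its neutrophil sum was high through S100a8 (24456 FPKM), with 5 of 11 markers highest there and a median of 2.56, against 3.78 in control 0, on the log2 scale relative to the control mean. The part of those cells, and which cells made the S100a8 transcript, were not tested.

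**Figure D3:**
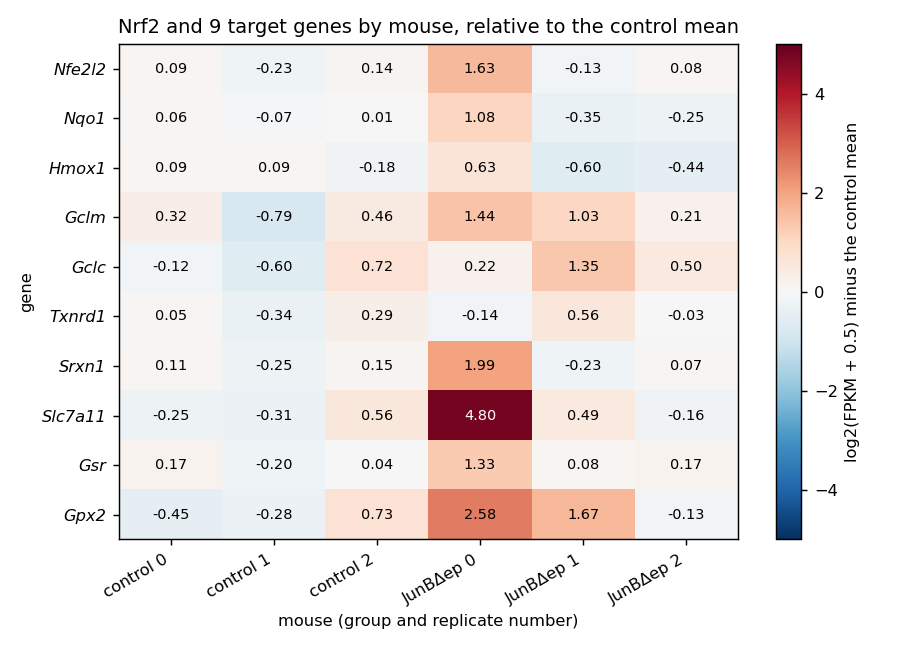
Log2(FPKM + 0.5) of each gene in each mouse minus the control mean of that gene (red above, blue below, values printed). The column of JunBΔep 0 is above 0 for 9 of the 10 genes, Txnrd1 at -0.14 being the exception, and Slc7a11 at 4.80 is its darkest cell.

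Txnrd1 and Gclc did not share that pattern. Both were highest in JunBΔep 1 and second in control 2, and the values of these 2 genes followed each other with a Pearson r of 0.905 over the 6 mice and 0.929 over the 5 mice without JunBΔep 0. Nfe2l2 was followed most closely by Srxn1, with an r of 0.999 over 6 mice and 0.985 over the 5 others. Slc7a11 was likewise nearest to Nfe2l2 over 6 mice, at 0.968, but at 0.193 over the 5 others, so that likeness rested on 1 library. Each r describes values from 6 shared libraries and was not tested.

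Among the 5 mice other than JunBΔep 0, control 2 and JunBΔep 1 were the highest pair for Gclc, Gclm, Txnrd1, Gpx2 and Slc7a11, 5 of the 10, against 18.4% of all genes tested. These 5 include both subunits of glutamate-cysteine ligase. Control 2 stood at 2.17 times the mean of control 0 and 1 for Gclc, 1.54 times for Gclm, 1.35 times for Txnrd1, 2.34 times for Gpx2 and 9.02 times for Slc7a11. JunBΔep 1 stood at 1.82 times JunBΔep 2 for Gclc, 1.80 times for Gclm, 1.505 times for Txnrd1, 3.87 times for Gpx2 and 4.44 times for Slc7a11. These ratios describe the size of the split that chose the 5 genes and test nothing. Control 2 and JunBΔep 1 are also the libraries with the hair shaft and root sheath markers named above, all 15 of which showed the same highest pair, led by the root sheath keratins Krt71 and Krt25. All 8 melanocyte markers did so too, with sums of 87.1 and 124 FPKM in these libraries and 10.5 to 18.5 FPKM in the others. The part of hair growth or pigment cells in the values of the 5 genes was not tested.

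**Figure D4:**
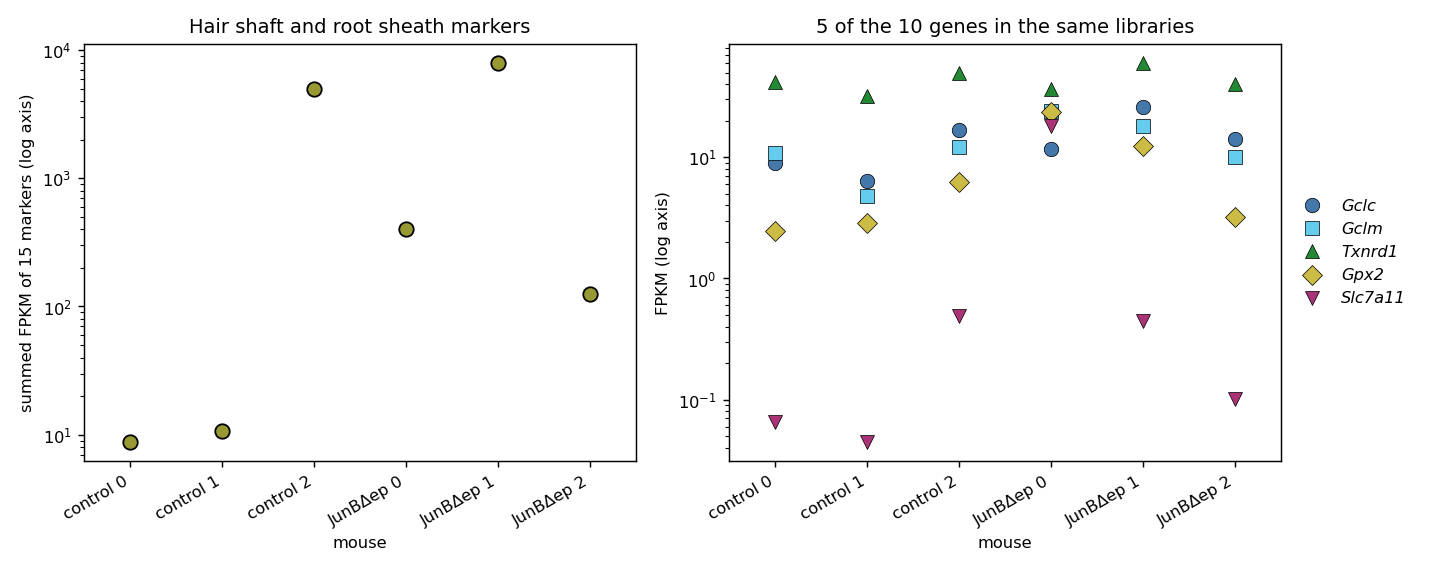
Left, summed FPKM of 15 hair shaft and root sheath markers in each mouse; right, FPKM of Gclc, Gclm, Txnrd1, Gpx2 and Slc7a11 in the same mice (both axes logarithmic). Apart from JunBΔep 0, the highest values on both sides are those of control 2 and JunBΔep 1.

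The sample titles fall into 2 number series, 1 with control 0, control 1 and JunBΔep 0 and 1 with control 2 and the other JunBΔep mice, and the labels do not say whether these are batches. Within the first series, JunBΔep 0 minus the mean of its controls gave a median log2 difference of 1.51 over the 10 genes, with 10 of 10 positive. Within the second, the JunBΔep mean minus control 2 gave a median of -0.10, with 4 of 10 positive. With 1 JunBΔep mouse in one and 1 control in the other, neither series has a test of its own. Fitted over all 6 mice with the series as a block, the median of the 10 genes was 0.74, with 9 positive and none called.

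Other genes of the pathway were taken from 7 lists of 97 genes, of which 96 were tested and none was called at an adjusted p of 0.05, against the 1.38% of all genes given above. At an unadjusted p of 0.05, 3 were higher and 5 lower in JunBΔep skin, 8 of the 96, beside the 7.56% of all genes given above. The groups were apart for 10 of the 96 (4 higher, 6 lower), against the 14.8% of all genes given above. Estimates were positive for 44 and the median log2 fold change was -0.06, beside 0.57 for the 10 Nrf2 genes. The library labelled JunBΔep 0 was highest for 30 of the 96, beside the 29.7% of all genes given above.

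For the 15 partners and repressors of Nrf2 the median log2 fold change was 0.04, with 9 positive, and -0.04 without JunBΔep 0. Keap1 was level across all 6 mice, between 22.3 and 24.7 FPKM. Sqstm1, the autophagy adaptor that competes for Keap1, was the most abundant, at 136, 154 and 146 FPKM in the controls and 149, 77.0 and 129 FPKM in JunBΔep mice 0, 1 and 2 (log2 fold change -0.35, limma adjusted p = 0.722). Nfe2l1, the Nrf2 relative that drives proteasome genes, followed at 112 to 132 FPKM in control and 70.0 to 101 FPKM in JunBΔep skin, with no overlap (log2 fold change -0.46, limma adjusted p = 0.678). Maff, a small Maf partner, was higher without overlap at 9.19 to 12.4 FPKM against 13.9 to 31.2 FPKM (log2 fold change 0.89, limma adjusted p = 0.538). Bach1, the haem-sensing repressor of Hmox1, stood at 17.2 FPKM in the library labelled JunBΔep 0 and at 5.95 to 6.89 FPKM in the other 5 mice. Keap1, Maff and Bach1 were picked for mention after their values were seen.

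For 22 genes of glutathione use and transfer the median log2 fold change was -0.20, with 9 positive, and -0.15 without JunBΔep 0. Gpx1, the general peroxidase, ranged over 194 to 390 FPKM in control skin and 212 to 684 FPKM in JunBΔep skin, and Gpx4, which reduces lipid peroxides, at 278 to 506 and 192 to 474 FPKM, with overlap in both (limma adjusted p = 0.826 and 0.772). Gsta2, a glutathione transferase, was lower without overlap, at 2.88, 4.23 and 2.28 FPKM against 0.366, 1.39 and 1.96 FPKM in the mice 0, 1 and 2 (log2 fold change -1.15, limma adjusted p = 0.620), with a log2 fold change of -0.72 without JunBΔep 0. Family members of the transferases can share reads, so single values for them are less certain. Of the 22 genes, 6 were highest and 10 lowest in the library labelled JunBΔep 0, where their median was -0.56 relative to the control mean, and 29.7% of all genes were highest there. All 8 adipocyte markers were lowest in that library too (79.6 FPKM in sum, against 1939 to 15255 in the other mice), and the part of fat cells was not tested. Glrx and Gsto1, a glutaredoxin and an omega-class transferase picked after their values were seen, were among the 6. Glrx read 494 FPKM in the library labelled JunBΔep 0 and 21.3 to 27.4 FPKM elsewhere, and Gsto1 read 416 FPKM there and 37.1 to 54.5 FPKM elsewhere.

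Thioredoxin and peroxiredoxin genes (15 tested) had a median of -0.07, with 6 positive, and of -0.10 without JunBΔep 0. Prdx2 and Prdx5, the most abundant, overlapped between groups, at 324 to 406 against 368 to 558 FPKM for Prdx2 and 278 to 539 against 325 to 566 FPKM for Prdx5. Prdx4, the peroxiredoxin of the endoplasmic reticulum, was apart at 18.1 to 22.4 against 23.05 to 35.1 FPKM (log2 fold change 0.40, limma adjusted p = 0.722). Haem and iron genes (11 tested) had a median of -0.12, and of -0.29 without JunBΔep 0, with the ferritin chains Fth1 and Ftl1 at 943 to 1765 against 532 to 2021 FPKM and 652 to 930 against 576 to 1325 FPKM. Fech, which puts iron into haem, was apart by a narrow margin, at 38.4, 21.8 and 29.7 FPKM in control skin against 14.1, 14.7 and 21.7 FPKM (log2 fold change -0.80, limma adjusted p = 0.502). Prdx4 and Fech were picked after their values were seen, because their groups were apart. Summed over 8 erythroid markers, the controls held 1794, 483 and 93.2 FPKM, and JunBΔep mice 0, 1 and 2 held 172, 43.6 and 124 FPKM. The part of erythroid cells in the Fech values was not tested. Superoxide dismutases and catalase (4 genes) were negative in all 4 estimates, with a median of -0.25 (-0.15 without JunBΔep 0), and Sod1 overlapped widely at 204 to 366 against 104 to 540 FPKM. Cat ran from 70.0 to 98.8 FPKM in control skin and from 20.4 to 152 FPKM in JunBΔep skin. None of these lists held a called gene.

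NADPH, which both reductases use, is supplied by the 6 genes of a list in which all estimates were positive, with a median of 0.63, and 0.64 without JunBΔep 0. By mouse, the median of the 6 genes relative to the control mean was 0.25, 0.30 and 1.05 on the log2 scale in JunBΔep mice 0, 1 and 2, so it was highest in JunBΔep 2. G6pdx, the entry enzyme of the pentose phosphate pathway, had the lowest adjusted p of the 96 genes and was picked for that. It stood at 32.9, 33.2 and 39.9 FPKM in control skin, against 69.6, 58.2 and 56.9 FPKM in JunBΔep skin, with every JunBΔep mouse above every control (log2 fold change 0.79, SE 0.16, limma adjusted p = 0.113). Tkt, transketolase, was also apart, at 66.4, 67.3 and 60.8 FPKM against 88.9, 143 and 465 FPKM (log2 fold change 1.47, limma adjusted p = 0.648), and its log2 fold change was 0.79 without JunBΔep 2. Taldo1, transaldolase, overlapped at 131 to 160 against 150 to 276 FPKM. The high Tkt value lay in JunBΔep 2, the library with the most adipocyte marker signal (15255 FPKM over 8 genes, against 79.6 to 5931 in the others), and the part of fat cells was not tested.

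Quinone, aldehyde and conjugation enzymes (23 tested of 24) had a median of -0.14, with 10 positive, and of -0.07 without JunBΔep 0, and 3 of the 23 had groups apart, against the 14.8% of all genes given above. Nqo2, the relative of Nqo1 that uses other cofactors, stood at 7.79, 6.35 and 7.99 FPKM in control skin, against 2.73, 2.60 and 4.50 FPKM in JunBΔep skin (log2 fold change -1.09, limma adjusted p = 0.198). Akr1b10, an aldo-keto reductase, had 15.5, 20.2 and 17.5 FPKM against 6.35, 4.94 and 11.9 FPKM (log2 fold change -1.23, limma adjusted p = 0.286). Aldh1a1, a retinaldehyde dehydrogenase, had 69.3, 66.7 and 45.4 FPKM against 2.44, 16.8 and 22.9 FPKM (log2 fold change -2.50, limma adjusted p = 0.422), and its log2 fold change was -1.57 without JunBΔep 0. All 3 were lower in every JunBΔep mouse than in any control, and none passed the test over all genes. The 15 skeletal muscle markers summed to 19388 to 26585 FPKM in control skin and 1808 to 4337 FPKM in JunBΔep skin. The part of muscle in the values of these 3 genes was not tested. Aldh2 and Aldh3a1, the most abundant of the list, overlapped, at 158 to 181 against 41.5 to 276 FPKM and 51.8 to 65.9 against 46.2 to 117 FPKM.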

How the data were processed

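Poly(A) RNA of whole skin was sequenced from 3 control and 3 JunBΔep mice with a stranded kit, and the mice are littermates. The deposited table holds FPKM values that the authors computed for each gene and mouse. The submitters' processing notes name FastQC, TopHat2 2.0.10, Bowtie 1.0.0, SAMtools 0.1.19, Cufflinks and the mm9 build. Which tool gave the FPKM values, and whether libraries were scaled, is not stated in the sources used here, and without read numbers no counting interval could be computed. Since they are not counts, the authors' count-based test could not be repeated.

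Values were compared as log2(FPKM + 0.5) with limma 3.58.1 in R 4.3.3 (intensity trend, no block, two-sided), over genes whose mean reached 0.1 FPKM, with Benjamini-Hochberg adjustment over all 17021 genes and a threshold of 0.05. The procedure was tested on simulated data. GENCODE vM1 gave gene positions on mm9, and promoters are RefSeq on GRCm38.p6, matched by symbol. No coordinates were moved between builds. Other steps used Python 3.11.15 with numpy 2.4.6, pandas 2.3.3 and, for figures, matplotlib 3.10.9.

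The 10 genes and all lists were chosen with earlier results of these data known. Named beside them were Junb and, from the other lists, genes called, genes with groups apart and a log2 fold change of at least 1 in size, and the 2 most abundant. Marker genes were named as the most abundant or defining ones. Other genes are said to be picked after their values were seen. Alternatives were pseudocounts of 0.1 and 1, no filter and a filter at 1 FPKM, 3 other scalings, limma without the trend and with robust estimation, a threshold of 0.1, blocks on the replicate number and on the title series, leaving out each mouse and, chosen after seeing the data, leaving out control 2 with JunBΔep 1.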

Additional observations from a re-analysis of the deposited data

How the results depend on the processing

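None of the 10 genes was called under any of the 19 alternatives. Those named below with 0 calls over all genes say nothing about the 10 in particular. The lowest adjusted p of any of the 10 genes was 0.151 in limma (Gpx2 without JunBΔep 2). Their median log2 fold change stayed positive, from 0.14 to 0.84 over the alternatives and from 0.14 to 0.79 on leaving out 1 mouse, the lowest without JunBΔep 0. Hmox1 changed sign to 0.099 with a block on the title series and to 0.0033 without control 2 and JunBΔep 1, and ran from -0.52 to 0.093 on leaving out 1 mouse. Txnrd1 changed sign to -0.013 with the title series block and ran from -0.086 to 0.27 on leaving out 1 mouse. With the joint exclusion of control 2 and JunBΔep 1 counted in, Nfe2l2 ran from -0.027 to 0.92, Nqo1 from -0.30 to 0.42 and Srxn1 from -0.079 to 1.11, negative in each case only without JunBΔep 0. On leaving out 1 mouse Gclc ran from 0.36 to 1.05, Gclm from 0.50 to 1.23, Gpx2 from 0.77 to 2.13, Gsr from 0.12 to 0.75 and Slc7a11 from 0.16 to 2.65. Over all genes, the 235 calls became 0 with the replicate block, 0 with the title series block and 0 without control 2 and JunBΔep 1. On leaving out 1 mouse they ran from 0 to 254, with 0 without control 0, 1 or 2 or JunBΔep 1, and 135 without JunBΔep 0, and the cause was not tested. The replicate numbers did not pair the mice (correlations of deviations 0.12, -0.23 and -0.43 for same-numbered mice), and with the replicate block the lowest adjusted p of the 10 genes was 0.817. Akr1b10 passed without JunBΔep 2 (-1.57, limma adjusted p = 0.0469) and under no other alternative. Scalings moved the median of all genes by less than 0.1 on the log2 scale. Spread among 3 mice per group, and unknown read depth for scarce genes such as Slc7a11, limit what these values can show.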
